A study of Gallus gallus with 6 samples.

Results

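The genes described here are those of transforming growth factor beta (TGF-beta), bone morphogenetic protein (BMP) and SMAD signalling in the embryonic chick heart. They were taken by name from the deposited table, with ligands, receptors, SMAD proteins, secreted antagonists, latent binding proteins and ID target genes included. Of the 6919 transcripts in the table, 50 carried such a name, 1 transcript to a gene. Other genes sought, such as TGFB1, BMP7, SMAD4 and SMAD7, were not listed under those symbols. Rankings and counts of the family given here therefore hold among these 50 alone. The study set out to learn how raised pressure load alters expression in the developing heart. Whole hearts of chick embryos (Dekalb white strain) at Hamburger-Hamilton stage (HH) 29 were sequenced, with 1 heart to a library. In the 3 OFT-banded hearts, numbered 6, 11 and 17, a nylon suture had been tied around the outflow tract (OFT) at HH21 and left in place until harvest. In the 3 sham hearts, numbered 38, 48 and 42, the operation was mimicked at the same stage but no suture stayed behind. RNA of both groups was depleted of globin transcripts before library preparation. A further label of the OFT-banded hearts reads outflow tract, while the tissue label and the methods name the heart. The labels give neither the sex of the embryos nor the RNA quality of each heart. The methods give a range of RNA integrity over all hearts sequenced, with some degradation put down to repeated thawing and to the depletion. Since the whole heart was used, myocardium, endocardium, cushions, epicardium and blood were measured together.

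Ligands of this family bind a pair of type II receptors, which then activate type I receptors, and these phosphorylate receptor SMADs. TGF-beta, activin and nodal ligands work mainly through SMAD2 and SMAD3, and BMP ligands mainly through SMAD1, SMAD5 and SMAD9. In the chick heart, BMP2, TGFB2 and TGFB3 act in the change of endocardium to mesenchyme that fills the cushions of the outflow tract and atrioventricular canal. ID genes, which encode inhibitors of basic helix-loop-helix factors, are common targets of the BMP branch.

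Values are reads per kilobase of transcript scaled to the library's depth (RPKM), and orders of level between genes given here are by these values. How far the values compare between genes was not tested here. The steps between low microRNA values gave a depth (reads, in units of 1e+06) of 30.1, 41.2 and 36.1 in hearts 6, 11 and 17, and 32.5, 37.5 and 21.1 in hearts 38, 48 and 42. A value of 1 RPKM on a transcript of 1 kilobase thus stands for about 21.1 to 41.2 counted units. The libraries were paired-end, and whether such a unit is a single read or a read pair was not resolved here. The range of uniquely mapped alignment hits that the study gives lies higher than these depths. The defining myocardial genes were abundant, with TNNT2, cardiac troponin T, between 3854 and 7845 RPKM. ATP2A2 was listed as 3 transcripts, none of which exceeded 0.63. How reads shared by these 3 transcripts were counted was not resolved here, so their values do not give the level of the gene. The endothelial genes found in the table, 11 of 22 listed, summed to 210 to 258 RPKM in OFT-banded and 225 to 283 in sham hearts. Those of cushion mesenchyme and fibroblasts, 12 of 16, summed to 979 to 1398 against 967 to 1459. The sums of 18 of 24 cardiomyocyte genes did not overlap, at 75130 to 80860 against 54950 to 69510, nor did those of 16 of 25 erythroid genes, at 6295 to 12390 against 16510 to 42030. Of the 17 tested cardiomyocyte genes 10 were higher and 7 lower with banding, and the abundant MYL2, ACTC1, MYL3, TNNC1 and TNNT2 each overlapped between the groups. In 1 of the 17 the groups were apart and higher (CSRP3, log2 fold change 0.37), beside 5.23% of all tested transcripts. In 1 they were apart and lower (IRX4, -0.36), beside 11.0%. NPPB, at 2038 to 7027 against 1124 to 2053 RPKM, overlapped, with a log2 fold change of 1.19. IRX4, CSRP3 and NPPB were chosen after their values were seen. HBE, an embryonic globin, made up most of the erythroid sum, at 5303 to 10572 RPKM against 14107 to 36922. Of the 12 tested erythroid genes 1 was higher and 11 lower with banding, with a median log2 fold change of -1.13. The depletion had been designed against HBAA, HBAD, HBB, HBG1, HBG2 and HBZ, so HBE is not among the named targets. HBG1, a named target, was at 762 to 1537 RPKM against 1978 to 4492. HBG2 was at 5.84 to 6.77 against 2.73 to 13.5, and HBAA, HBAD and HBZ did not exceed 0.61. How far the depletion went in each heart was not tested here. Epicardial genes (4 of 9) summed to 297 to 376 against 279 to 390 RPKM, smooth muscle genes (5 of 8) to 282 to 430 against 238 to 287, leukocyte genes (10 of 12) to 72.8 to 103 against 88.2 to 109, and neural crest and neuronal genes (7 of 13) to 26.2 to 40.8 against 28.4 to 38.3. Of the 5 tested smooth muscle genes 4 were higher and 1 lower with banding, with a median log2 fold change of 0.48. In 2 of them the groups were apart and higher, beside 5.23% of all tested transcripts, and in 0 apart and lower, beside 11.0%. In such mixed tissue fewer cells of a type and less RNA per cell cannot be told apart. The part of these cell types in the results was not tested.

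No pathway gene passed the test between OFT-banded and sham hearts. The test was limma on log2(RPKM + 1) of the 4726 transcripts with a mean of at least 1 RPKM, with Benjamini-Hochberg adjustment over all of them, and 42 of the 50 genes passed this filter. At an adjusted p under 0.05, 0 of the 42 were called, beside 0.0% of all tested transcripts, and the smallest adjusted p among them was 0.543. The study did call genes on these hearts with DESeq, which was not run here. At an unadjusted p under 0.05 from limma there was 1, SMAD2, beside a background of 8.57%. By value 21 genes were higher and 21 lower in OFT-banded hearts, with a median log2 fold change of -0.01. Over all tested transcripts 36.8% were higher, with a median of -0.07. The split of the pathway genes turned on single hearts. It was 27 higher and 15 lower without heart 6, 13 and 29 without heart 11, and 16 and 26 without heart 17. Over all tested transcripts 44.1%, 34.3% and 36.2% were then higher. With each heart rescaled to the same sum (TPM), 17 of 44 pathway genes were higher, beside 31.0% of all transcripts.

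The hearts of both groups overlapped in all but a pair of the 42 tested genes. No tested pathway gene lay higher in every OFT-banded heart than in every sham heart, beside 5.23% of all tested transcripts. In 2 of 42, SMAD2 and CHRD, every OFT-banded heart lay lower than every sham heart, beside 11.0%. Both shares lie under the background. Leaving out sham heart 38 raised the lower count to 13 of 43, where 29.2% of all transcripts were then apart in that direction. Leaving out heart 11 gave 4 lower genes, where 18.4% of all transcripts were. The count of higher genes was 5 without heart 17 (BMP2, ID1, ID3, ENG and NBL1), beside 9.7% of all transcripts, 3 without heart 6 (BMP4, INHBB and SKIL), beside 11.0%, and 2 without heart 38 (BMP2 and ID1), beside 12.1%. It was 1 without heart 11, 48 or 42, beside 7.3%, 8.9% and 6.9%. With median-ratio scaling BMP4 was the 1 gene apart and higher, beside 7.9%.

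**Figure D1:**
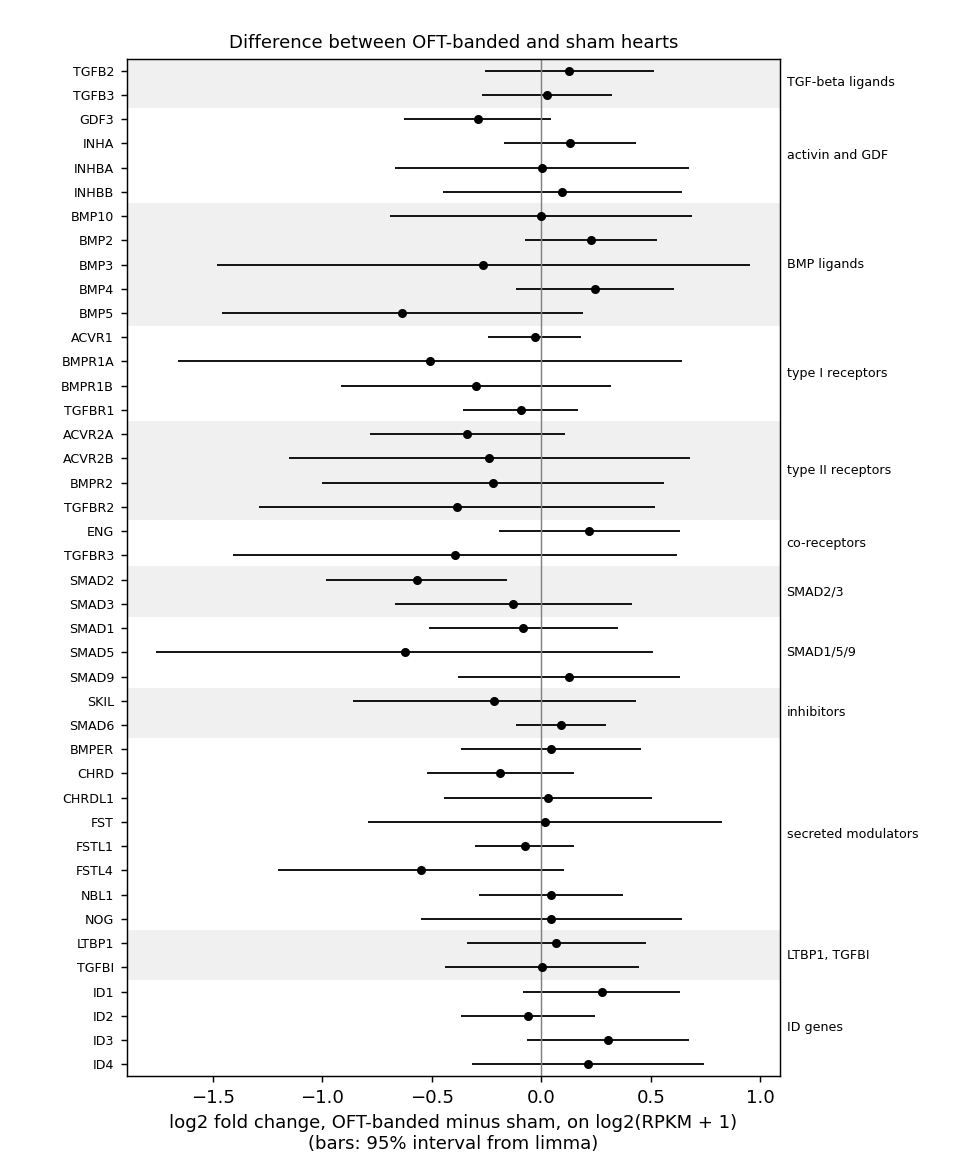
Log2 fold change between OFT-banded and sham hearts (x axis, on log2(RPKM + 1); bars are 95% intervals from limma, 3 hearts a group) for the 42 tested pathway genes, ordered by role. The interval leaves out 0 for SMAD2 alone, at -0.57, and all 8 type I and type II receptors lie left of 0 with intervals that span it.

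SMAD2, the receptor SMAD that carries TGF-beta, activin and nodal signals together with SMAD3, showed the clearest separation of the groups. It was at 9.25, 12.9 and 14.9 RPKM in OFT-banded hearts 6, 11 and 17, and at 19.6, 17.5 and 18.4 RPKM in sham hearts 38, 48 and 42. No OFT-banded value reached the sham range, and heart 6 was the lowest of all. The log2 fold change was -0.57 (standard error 0.18, 95% interval -0.98 to -0.16), and the adjusted p was 0.543 from limma, with 0.0136 before adjustment. Over the 13 alternatives the log2 fold change ranged from -0.71 to -0.39 and the adjusted p from 0.349 to 0.985. SMAD3 did not share this separation, at 5.53, 7.60 and 6.95 RPKM in OFT-banded hearts and 5.05, 8.55 and 9.06 in the sham group. A log2 fold change of -0.13 (95% interval -0.67 to 0.41, adjusted p = 0.825 from limma) was found, and sham heart 38 was the lowest.

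SMAD2 lies on the sex chromosome Z of the chick, and RefSeq also lists it as SMAD2Z. HINTW, a gene of the W chromosome that females carry, was between 743 and 1215 RPKM in all 6 hearts. The 189 tested transcripts of Z had median deviations from the gene mean of -0.11, 0.02 and 0.01 on the log2 scale in hearts 6, 11 and 17, and of -0.01, 0.02 and 0.06 in hearts 38, 48 and 42. Those of all other transcripts were -0.10, 0.02 and 0.00, and -0.01, 0.04 and 0.08. SMAD7B, an inhibitory SMAD that RefSeq places on W, was at 10.4, 11.4 and 11.9 RPKM in OFT-banded and 11.9, 10.3 and 10.5 RPKM in sham hearts. The authors kept uniquely mapped reads, and reads that a similar copy of SMAD2 or SMAD7B could share were not resolved here.

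The receptor SMADs of the BMP branch differed in level and in spread. SMAD1 was at 15.2, 22.2 and 24.2 RPKM in OFT-banded and 18.8, 22.3 and 23.2 RPKM in sham hearts. The log2 fold change was -0.08 (95% interval -0.51 to 0.35, adjusted p = 0.863 from limma). SMAD5 was the more variable, at 5.02, 13.7 and 17.5 RPKM in OFT-banded hearts against 9.65, 20.8 and 24.7 in sham hearts. Heart 6 was the lowest and heart 42 the highest, and the groups overlapped through heart 38. The log2 fold change of SMAD5 was -0.62 (standard error 0.48, adjusted p = 0.632 from limma) and went to -0.14 without heart 6. SMAD9 was low throughout, between 0.94 and 1.89 RPKM. The level of SMAD1 was 3.02 times that of SMAD5 in heart 6 but 0.939 times in heart 42.

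All 8 type I and type II receptors were lower by value in OFT-banded hearts, none with an adjusted p under 0.560 from limma. Of all tested transcripts 2985 of 4726 were lower. Without heart 6, 6 of the 8 were lower. Among type I receptors ACVR1, also known as ALK2, was by far the most abundant, at 81.7, 92.6 and 91.9 RPKM in OFT-banded hearts and 92.3, 84.0 and 95.5 RPKM in sham hearts. ACVR1 had a log2 fold change of -0.03 (95% interval -0.24 to 0.18, adjusted p = 0.894 from limma), the narrowest interval of the type I and type II receptors. TGFBR1, the TGF-beta type I receptor ALK5, lay between 19.6 and 23.4 RPKM in OFT-banded and 21.5 and 24.5 in sham hearts. The type I receptors BMPR1A and BMPR1B were low. BMPR1A ranged from 1.21 RPKM in heart 6 to 7.30 in heart 48, and BMPR1B from 0.87 in heart 6 to 2.67 in heart 42. The log2 fold change of BMPR1A was -0.51 (95% interval -1.66 to 0.64, adjusted p = 0.676 from limma) and -0.01 without heart 6.

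Of the type II receptors, ACVR2A, which binds activins and several BMPs, was at 12.2, 17.7 and 16.7 RPKM in OFT-banded hearts and 15.8, 20.7 and 23.2 RPKM in sham hearts. The highest OFT-banded heart, 11, lay above the lowest sham heart, 38, and the log2 fold change was -0.34 (95% interval -0.78 to 0.11, adjusted p = 0.560 from limma). TGFBR2, which binds the TGF-beta ligands, was at 7.14, 16.8 and 16.3 against 10.3, 20.1 and 22.4 RPKM, and its log2 fold change of -0.38 went to -0.01 without heart 6. BMPR2 was at 2.48, 4.17 and 6.31 against 3.13, 6.17 and 6.01 RPKM, with a log2 fold change of -0.22 that became 0.05 without that heart. ACVR2B was at 2.98, 1.54 and 2.17 against 5.85, 1.64 and 1.90 RPKM, so that heart 38 was the highest. Its log2 fold change of -0.24 turned to 0.20 without heart 38.

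The co-receptors differed widely in level. ENG, endoglin, which presents ligand to endothelial receptors, was at 139, 149 and 120 RPKM in OFT-banded hearts and 88.1, 132 and 134 RPKM in sham hearts. Sham heart 38 was the lowest and the other sham hearts lay within the OFT-banded range, with a log2 fold change of 0.22 (95% interval -0.19 to 0.63, adjusted p = 0.640 from limma). It went to 0.02 without heart 38. TGFBR3, betaglycan, was at 0.63, 2.83 and 2.62 against 1.26, 3.74 and 3.77 RPKM.

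**Figure D2:**
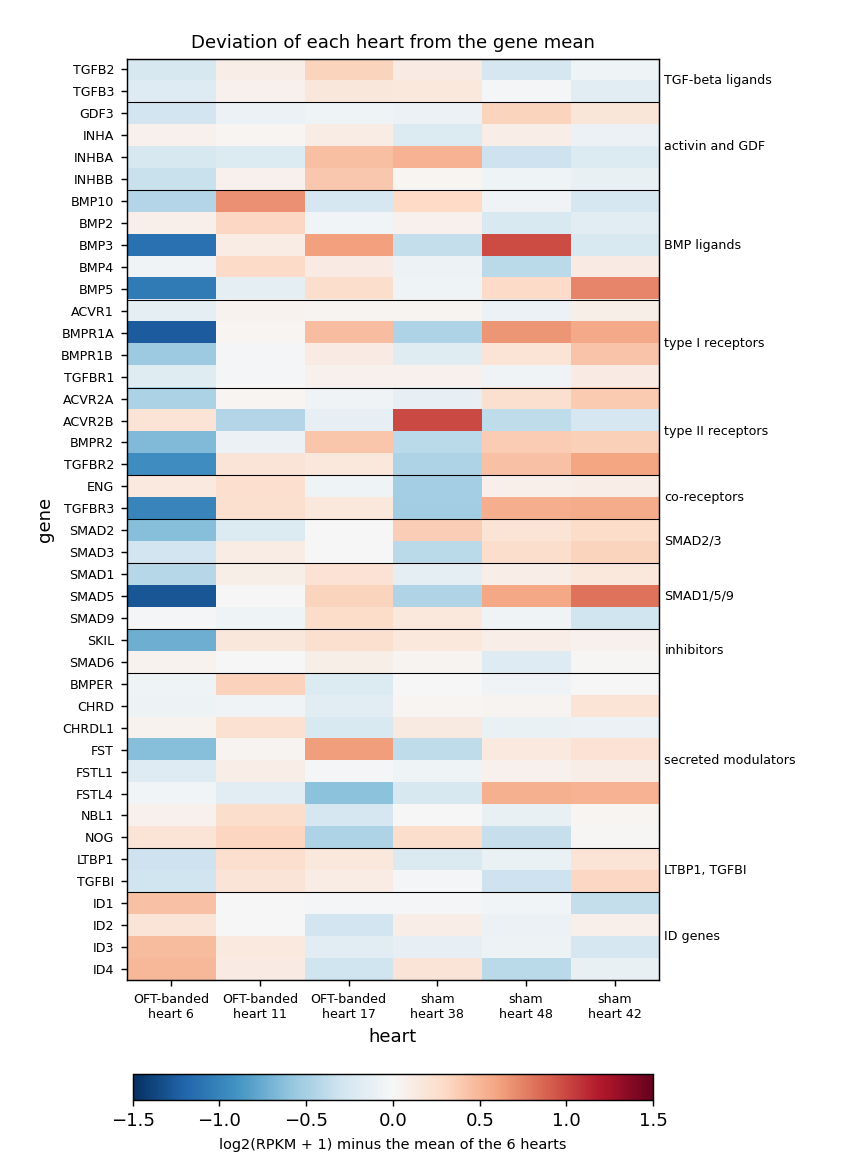
Deviation of log2(RPKM + 1) of each heart (columns) from the mean of the 6 hearts, for each tested pathway gene (rows, grouped by role; red higher, blue lower). OFT-banded heart 6 is the lowest in 7 of 8 type I and type II receptors and the highest in all 4 ID genes.

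TGFB3 was the most abundant of the ligands listed. It was at 175, 210 and 225 RPKM with banding and 224, 196 and 178 RPKM in the sham group. TGFB2 was at 49.1, 62.3 and 73.6 against 63.2, 48.6 and 55.7 RPKM. The groups overlapped in both, with log2 fold changes of 0.03 (95% interval -0.27 to 0.32) and 0.13 (95% interval -0.26 to 0.52). Within every heart TGFB3 stood 3.05 to 4.04 times above TGFB2. LTBP1, which binds latent TGF-beta to the matrix, was at 161, 239 and 224 against 173, 187 and 232 RPKM. TGFBI, a matrix protein first found as induced by TGF-beta, was at 79.6, 112 and 106 against 97.4, 79.3 and 122 RPKM. Neither separated the groups.

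Among the activin and growth differentiation factor (GDF) ligands, GDF3, listed in RefSeq also as CVG1, was at 14.3, 16.7 and 16.9 RPKM in OFT-banded and 16.6, 22.6 and 20.3 RPKM in sham hearts. Heart 38 lay within the OFT-banded values. GDF3 gave a log2 fold change of -0.29 (95% interval -0.63 to 0.05, adjusted p = 0.543 from limma), and -0.41 without heart 38. INHA, the inhibin alpha subunit, lay between 11.3 and 12.1 RPKM in OFT-banded and 9.49 and 12.0 in sham hearts. INHBA, the subunit of activin A, was near 5 to 6 RPKM in 4 hearts but at 9.60 in OFT-banded heart 17 and 10.1 in sham heart 38. INHBB, that of activin B, stayed between 1.18 and 2.62 RPKM.

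BMP10, which sustains growth of the trabecular myocardium in the mouse, led the BMP ligands at 93.1, 203 and 106 RPKM in the OFT-banded against 156, 121 and 106 RPKM in the sham group. Heart 11 stood far above the other OFT-banded hearts, and the log2 fold change of 0.00 (95% interval -0.69 to 0.69) became -0.34 without it. BMP4 was at 61.9, 78.5 and 70.0 RPKM in OFT-banded hearts against 60.5, 48.0 and 69.6 in sham hearts. All 3 OFT-banded hearts lay above heart 48 and 38, but heart 42 stood between hearts 6 and 17. BMP4 gave a log2 fold change of 0.25 (95% interval -0.11 to 0.61, adjusted p = 0.588 from limma). BMP2 was at 42.2, 49.9 and 38.7 against 41.7, 34.1 and 35.3 RPKM, a log2 fold change of 0.23 (95% interval -0.07 to 0.53, adjusted p = 0.560 from limma). Here heart 38 lay above heart 17.

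BMP5 went the other way, at 14.0, 27.2 and 36.5 RPKM in OFT-banded and 28.8, 37.1 and 51.0 RPKM in sham hearts. Heart 17 lay above heart 38, and heart 6 was the lowest. Its log2 fold change of -0.63 (standard error 0.35, 95% interval -1.46 to 0.19, adjusted p = 0.558 from limma) ranged from -0.92 to -0.26 with single hearts left out. BMP3, which opposes other BMPs, ranged from 2.03 RPKM in heart 6 to 12.0 in heart 48, a log2 fold change of -0.26 that became 0.23 without heart 6. The ratio of BMP4 to BMP2 within hearts had a mean of 1.62 ± 0.175 with and 1.61 ± 0.313 without banding (SD over 3 hearts, p = 0.9 by exact two-sided permutation).

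**Figure D3:**
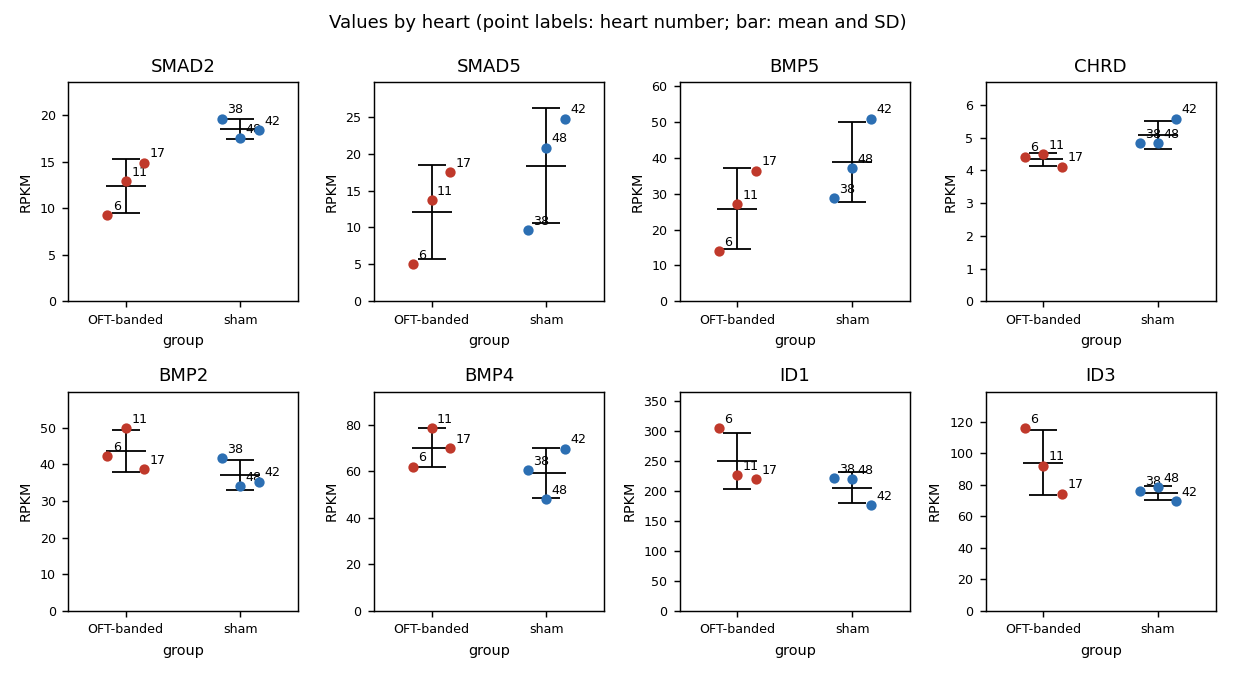
RPKM by heart (y axis) in OFT-banded (red) and sham (blue) hearts for 8 genes, with the mean and SD of each group as black bars. SMAD2 and CHRD are apart between the groups, with OFT-banded hearts at 9.25 to 14.9 and 4.11 to 4.49 RPKM, while the other genes overlap.

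Of 8 tested secreted antagonists and modulators, CHRD alone was apart between the groups. CHRD, chordin, which binds BMPs outside the cell, was at 4.42, 4.49 and 4.11 RPKM in OFT-banded hearts and 4.83, 4.84 and 5.58 RPKM in sham hearts. Heart 42 was the highest. The gap between the groups was small, with a log2 fold change of -0.19 (95% interval -0.52 to 0.15, adjusted p = 0.629 from limma). With median-ratio scaling the groups overlapped. NOG, noggin, another BMP antagonist, was at 8.71, 9.61 and 5.16 against 9.12, 5.67 and 7.54 RPKM, with no order of the groups. Nor did the ratio of NOG to CHRD separate them, at 1.79 ± 0.470 against 1.47 ± 0.373 (SD over 3 hearts, p = 0.4 by exact two-sided permutation).

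FSTL1, a secreted follistatin-like protein, was the most abundant of this role, at 242, 294 and 272 RPKM in OFT-banded and 264, 289 and 296 RPKM in sham hearts. FSTL4 was at 2.45, 2.15 and 1.32 against 2.01, 4.13 and 4.09 RPKM, where heart 38 lay with the OFT-banded hearts. Its log2 fold change was -0.55 (95% interval -1.20 to 0.11, adjusted p = 0.543 from limma), with -0.80 when heart 38 was left out. FST, follistatin, which binds activins and like SMAD2 lies on Z, ranged from 1.45 to 4.92 RPKM, with both ends in OFT-banded hearts. NBL1, also called DAN, lay between 32.6 and 47.0 RPKM, BMPER between 5.72 and 8.86, and CHRDL1 between 1.34 and 2.20, each with its lowest and highest value in OFT-banded hearts.

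SMAD6, the inhibitory SMAD that acts mainly on the BMP branch, was the third most abundant gene of the family. It was at 257, 249 and 265 RPKM in the OFT-banded against 257, 217 and 251 RPKM in the sham group, with a coefficient of variation over the 6 hearts of 6.7%. Only heart 48 stood lower, and the log2 fold change was 0.09 (95% interval -0.11 to 0.30, adjusted p = 0.677 from limma). SKIL, the SMAD repressor SnoN, was at 2.01, 4.63 and 4.93 against 4.57, 4.38 and 4.23 RPKM, with heart 6 apart from the other 5.

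ID2 was the most abundant gene of the family, at 409, 361 and 294 RPKM in the OFT-banded against 384, 339 and 379 RPKM in the sham group, with no order of the groups. ID1 was at 304, 226 and 219 RPKM in OFT-banded against 221, 219 and 175 RPKM in sham hearts. Heart 6 stood highest and heart 42 lowest, and only heart 17 overlapped with the sham hearts, by about 1 RPKM against heart 38. The log2 fold change of ID1 was 0.28 (95% interval -0.08 to 0.64, adjusted p = 0.558 from limma). With single hearts left out it ranged from 0.128 to 0.362, lowest without heart 6. ID3 was at 116, 92.0 and 74.2 against 76.0, 78.5 and 69.6 RPKM, with hearts 6 and 11 above every sham heart and heart 17 below 38 and 48. Its log2 fold change was 0.31 (95% interval -0.07 to 0.68, adjusted p = 0.543 from limma). That of ID3 ranged from 0.145 to 0.462 with single hearts left out, again lowest without heart 6. ID4 was at 187, 143 and 107 against 151, 99.6 and 121 RPKM, a log2 fold change of 0.21 (95% interval -0.32 to 0.74) that fell to 0.02 without heart 6.

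Relative to ID2 within the same heart, ID3 was at 0.283, 0.255 and 0.252 in OFT-banded and 0.198, 0.232 and 0.184 in sham hearts, so that the groups did not overlap. The exact two-sided permutation test gave p = 0.1, the smallest 3 against 3 can give, and 0.65 after Benjamini-Hochberg adjustment over the 13 ratios computed. It was the only one of the 13 ratios without overlap. ID1 relative to ID2 overlapped, at 0.743, 0.625 and 0.746 against 0.574, 0.645 and 0.462 (exact permutation test, p = 0.2), and ID1 relative to ID3 lay between 2.46 and 2.96 in all hearts.

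Many of these genes varied widely over the 6 hearts of both groups together. Heart 6 was the lowest of the 6 hearts in 21 of the 42 genes, beside 42.2% of all tested transcripts, and heart 42 the highest in 12, beside 36.1%. The coefficient of variation over all hearts had a median of 21% for the pathway genes and 13.6% for all tested transcripts. The rank of heart 6 moved with the length of the gene on the genome, introns included. Of the 27 pathway genes with a span above the median of all tested transcripts, 14.8 kilobases, heart 6 was lowest in 16 and highest in none, and of the 15 with a shorter span it was lowest in 5 and highest in 4. Among all transcripts of longer span heart 6 was lowest in 57.6% and highest in 7.1%, and among all of shorter span in 27.1% and 26.0%. Spearman's rho between span and the deviation of a heart over the 42 genes was -0.40 in heart 6 and -0.28 in heart 38, but 0.30 in heart 48 and 0.36 in heart 42. Over all tested transcripts with a span rho was close to these, at -0.40, -0.25, 0.26 and 0.27 in the same hearts. For the log2 fold change it was -0.46 over these genes and -0.24 over all tested ones. These are descriptions across genes of the same libraries. The part of gene span in the differences was not tested beyond the fit without the trend. In that fit SMAD2 and CHRD were again the genes apart between the groups, both lower, beside 8.0% of all transcripts. There 24 of 42 genes were higher, beside 48.2% of all transcripts.

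**Figure D4:**
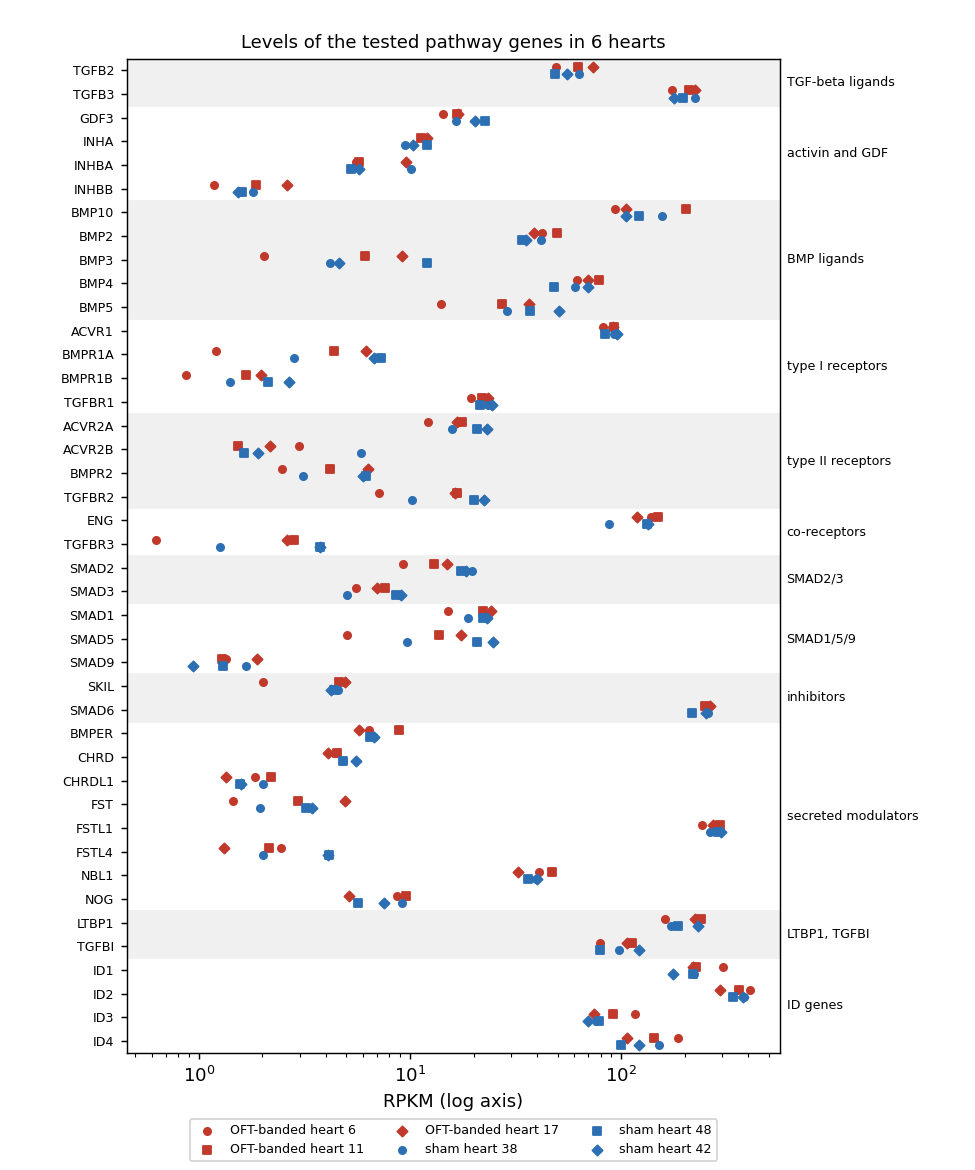
RPKM of the 42 tested pathway genes (x axis, log scale) in each heart, OFT-banded in red and sham in blue, ordered by role. Levels run from 0.63 RPKM for TGFBR3 in heart 6 to 409 for ID2, and type I and type II receptors other than ACVR1 lie under 25 RPKM.

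Ordered by mean level over the 6 hearts, ID2 came first at 361 ± 40.4 RPKM (SD, n = 6) and stood above FSTL1, at 276 ± 21.1 RPKM, in all 6. SMAD6 followed at 249 ± 16.7 RPKM, under FSTL1 in 5 hearts, then ID1 at 227 ± 41.9, LTBP1 at 203 ± 33.1 and TGFB3 at 201 ± 22.2 RPKM. ID1 was above LTBP1 in 3 hearts of 6 and LTBP1 above TGFB3 in 2, so these neighbours did not separate. ID4, BMP10 and ENG came next at 135 ± 32.3, 131 ± 41.6 and 127 ± 21.4 RPKM, again without a fixed order. At the lower end of the tested genes, ACVR2B, TGFBR3, BMPR1B, INHBB, CHRDL1 and SMAD9 had means of 1.41 to 2.68 RPKM. Summed by role, the 4 ID genes held 695 to 1016 RPKM in a heart, the 5 tested BMP ligands with BMP15 213 to 365, and the TGF-beta ligands 224 to 298. The 4 type I receptors summed to 103 to 130 RPKM and the 4 type II receptors to 24.8 to 53.5, less in every heart.

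Other genes of the pathway, in 4 lists, gave no call at an adjusted p under 0.05 from limma either. Of 13 tested genes of latency and activation 5 were higher and 8 lower by value, with a median log2 fold change of -0.04 and none under an unadjusted p of 0.05. FURIN, a protease that cleaves the ligand precursors, was at 12.2, 11.8 and 11.7 RPKM in OFT-banded and 11.6, 13.5 and 18.5 RPKM in sham hearts, and ITGB5, an integrin subunit, had a log2 fold change of -0.17. Of 4 tested extracellular modulators 2 were higher. BAMBI, a decoy receptor without kinase domain and itself a target of the pathway, was at 237, 232 and 206 against 195, 181 and 208 RPKM. Heart 42 lay just above heart 17, and the log2 fold change was 0.21 (95% interval -0.004 to 0.42, adjusted p = 0.543 from limma). CRIM1, which binds BMPs, had a log2 fold change of -0.10. TWSG1, twisted gastrulation, was at 58.0 ± 10.1 against 58.5 ± 6.47 RPKM (SD, n = 3 each).

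Of 15 tested intracellular regulators 3 were higher and 12 lower, with a median log2 fold change of -0.15, beside -0.07 over all transcripts, and 1 was under an unadjusted p of 0.05, beside 8.57%. In 1 the groups were apart and higher, beside 5.23% of all tested transcripts. In 4 they were apart and lower (TOB2, TAB1, RNF111 and STRAP), beside 11.0%. The 1 under 0.05 was TOB2, of a family that binds receptor SMADs, at 17.4, 19.6 and 16.5 RPKM in OFT-banded hearts and 24.2, 23.8 and 26.0 RPKM in sham hearts. The groups did not overlap, and the log2 fold change was -0.45 (standard error 0.11, adjusted p = 0.543 from limma). Its relative TOB1 was at 87.1 ± 6.82 against 98.7 ± 5.67 RPKM (SD, n = 3 each), with heart 17 above heart 48, and WWP2, a ubiquitin ligase, had a log2 fold change of -0.28. FKBP1A, which holds type I receptors inactive, was at 3789, 3289 and 3379 against 3281, 2865 and 2787 RPKM, with heart 11 just above heart 38 and the groups apart. Its log2 fold change was 0.23 (95% interval -0.03 to 0.49, adjusted p = 0.543 from limma).

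Of 28 tested target genes outside the family list 15 were higher and 13 lower, with a median log2 fold change of 0.02, and 4 were under an unadjusted p of 0.05, beside 8.57% of all tested transcripts. In 4 the OFT-banded hearts lay above all sham hearts, beside 5.23%, and in 2 below them, beside 11.0%. TGM2, a transglutaminase, was called by the study with DESeq on these same hearts and is thus no independent evidence. It was at 123, 140 and 128 RPKM in OFT-banded and 187, 187 and 169 RPKM in sham hearts. FN1, fibronectin, was at 221, 309 and 294 against 345, 357 and 354 RPKM. Both were apart between the groups, with log2 fold changes of -0.47 and -0.37 (adjusted p = 0.543 each from limma). The test used here thus did not repeat the study's call of TGM2. TBX3, a T-box factor, was at 10.3, 9.06 and 8.25 against 5.64, 7.27 and 7.56 RPKM. Its log2 fold change was 0.39 (95% interval 0.02 to 0.76, adjusted p = 0.543 from limma). In the study TBX3 was not significant by DESeq or by qPCR. CTGF, connective tissue growth factor, was at 82.7, 75.3 and 229 against 59.7, 56.7 and 59.4 RPKM. All OFT-banded hearts stood above all sham hearts, heart 17 by far the most, and the log2 fold change of 0.93 went to 0.42 without it. The others apart and higher were TWIST1 (log2 fold change 0.32) and CYR61 (1.09), the latter at 51.7, 51.0 and 266 against 47.2, 39.9 and 37.7 RPKM.

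The 8 remaining genes had a mean under 1 RPKM and were not tested. MSTN, myostatin, and GDF9 were listed at 0 in all 6 hearts. BMP15 did not exceed 0.25 RPKM, GDF5 0.24 and LEFTY2, named LEFTY1 in RefSeq, 0.29. SKI, the relative of SKIL, ranged from 0.23 to 1.30 RPKM and GREM1, gremlin, from 0.52 to 1.12. GDF2, also known as BMP9, a ligand of endothelial receptors, was at 0.76, 0.32 and 0.53 RPKM in OFT-banded hearts and 0.00, 0.13 and 0.15 RPKM in sham hearts. It was apart between the groups at this low level, with a log2 fold change of 0.48 on log2(RPKM + 1) and an adjusted p of 0.640 from limma when no filter was set.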

How the data were processed

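The authors trimmed strand-specific paired-end reads with scythe and sickle, aligned them with TopHat to galGal4, counted uniquely mapped reads with HTSeq and deposited RPKM, 1 value per RefSeq transcript and heart. Versions are not given in the sources used here. The column names give a group and a heart number, and that number is in no label. Pathway genes were found by symbol, 48 of 50 by accession in the RefSeq table of assembly GRCg7b, used for names, gene spans and the Z and W chromosomes. Its build differs from galGal4, so no coordinates are given, and no promoter or protein was analysed here.

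Values were compared as log2(RPKM + 1) with limma 3.58.1 in R 4.3.3 (intensity trend, Benjamini-Hochberg over 4726 transcripts with a mean of at least 1 RPKM), a scale that understates the change of low genes. RPKM are not counts, so no count test was run. Ratios were computed in Python 3.11.15 with scipy 1.17.1 and tested on the log scale. Depth came from steps of low microRNA values, whole within 0.1 of a counted unit for at least 98.4%. The depth was chosen to make these same values whole, so that share is no separate check of it. The fit was tested on simulated data. P-values of limma set a difference against the spread between 3 hearts per group, drawn toward a trend fitted over all tested transcripts. The pathway genes and lists were chosen with earlier results of these data known. Named genes are all tested pathway genes and, of each further list, mainly those with the smallest p. TWSG1 and SMAD7B were named for their role after their values were seen. Gene lists for cell types were described by sums, counts and a few single genes.

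Alternatives tried were no filter, a mean of at least 5 RPKM, a pseudocount of 0.1, TPM, median-ratio scaling, no intensity trend and each heart left out. A fit without the gene-span trend (20 bins) was added after the data were seen.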

Additional observations from a re-analysis of the deposited data

How the results depend on the processing

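No pathway gene was called in any of the 13 alternatives. The adjusted p of SMAD2 stayed at or above 0.349 and its log2 fold change below 0. Of the 42 genes 19 kept their direction in every alternative, 9 higher and 10 lower. The higher ones were BMP2, BMP4, ID1, ID3, ID4, ENG, INHA, SMAD6 and SMAD9. The lower ones were SMAD2, SMAD5, BMP5, ACVR2A, GDF3, CHRD, BMPR1A, BMPR1B, TGFBR2 and FSTL4. Some came near 0, such as ID4 at 0.017 and BMPR1A at -0.011. The other 23 turned in at least 1 alternative. The cause was not tested. All alternatives draw on the same 6 hearts. The share of all tested transcripts that kept their direction was not computed. No paired analysis was possible because no source used here names pairs of hearts, and the columns carry heart numbers that the labels do not give.

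The count of genes apart and higher, 0, was 1 with no filter (GDF2), beside 4.2% of all transcripts. It was 1 with median-ratio scaling (BMP4), beside 7.9%, and 1 to 5 with single hearts left out, beside 6.9% to 12.1%. The count apart and lower, 2, was 1 with a mean of at least 5 RPKM, under which CHRD was not tested, beside 11.8%. It was 1 with median-ratio scaling, beside 7.5%, and 2 to 13 with single hearts left out, beside 13.1% to 29.2%.

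Log2 fold changes turned with TPM to -0.009 for TGFB3, -0.027 for INHBA, -0.034 for BMP10, -0.012 for FST and -0.030 for TGFBI, with a pseudocount of 0.1 to -0.008 for FST, and with median-ratio scaling to 0.037 for ACVR1 and 0.008 for ID2. Without the span trend they turned to 0.079 for ACVR1, 0.003 for TGFBR1, 0.037 for SMAD1, 0.035 for FSTL1 and -0.029 for NOG.

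With single hearts left out, genes that turned ranged from -0.006 to 0.281 for TGFB2, -0.054 to 0.131 for TGFB3, -0.222 to 0.263 for INHBA, -0.082 to 0.284 for INHBB, -0.342 to 0.218 for BMP10, -0.637 to 0.234 for BMP3, -0.083 to 0.028 for ACVR1, -0.489 to 0.199 for ACVR2B, -0.481 to 0.054 for BMPR2, -0.750 to 0.005 for TGFBR3, -0.359 to 0.008 for SMAD3, -0.208 to 0.112 for SMAD1, -0.389 to 0.10 for SKIL, -0.116 to 0.161 for BMPER, -0.073 to 0.153 for CHRDL1, -0.294 to 0.343 for FST, -0.140 to 0.001 for FSTL1, -0.075 to 0.181 for NBL1, -0.113 to 0.286 for NOG, -0.041 to 0.242 for LTBP1, -0.148 to 0.161 for TGFBI and -0.169 to 0.068 for ID2.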
